A study of Mus musculus with 12 samples.

Results

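Genes of the actin machinery that moves the meiotic spindle were followed through oocyte maturation: 10 of the 56691 genes in the count table. They were taken by name: the filament nucleators Fmn2, Spire1 and Spire2, the cytoplasmic actins Actb and Actg1, the Arp2/3 subunits Actr2 and Actr3, the turnover factors Cfl1 and Pfn1, and the vesicle motor Myo5b. Messenger RNA of mouse oocytes had been sequenced in 12 libraries, 2 for each combination of genotype and stage. The stages were the germinal vesicle (GV) stage, with an intact nucleus, germinal vesicle breakdown (GVBD), when the nuclear envelope dissolves, and metaphase II (MII), the arrested mature egg. Wild-type (WT) mice were compared with Alkbh5-/- mice (KO), in which the first exon of Alkbh5, start codon included, had been removed with CRISPR-Cas9. Alkbh5 encodes an enzyme that removes the methyl mark m6A from RNA.

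The females were 3-week-old C57BL/6 mice primed with PMSG, a hormone that stimulates follicle growth, and each library was made from a small pool of oocytes. The knockout was in the whole body, so the cells around the growing oocyte lacked the enzyme too. KO oocytes were collected by time in culture, and most KO oocytes are described as stalling before GVBD, so KO libraries labelled GVBD or MII may hold earlier stages. In pooled oocytes, fewer cells of one stage and less RNA per cell cannot be told apart.

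An actin filament starts slowly on its own, and nucleators speed this step. In the mouse oocyte, formin 2 (Fmn2) and the Spire proteins, which line up actin monomers through WH2 domains, act together to build a filament mesh through the cytoplasm, and vesicles carrying RAB11 and the motor myosin Vb (Myo5b) organise that mesh. The mesh carries the spindle to the cortex, where the branched network of the Arp2/3 complex then holds it for an asymmetric division.

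Actb and Actg1 proteins differ at a few residues, and reads from their messages are told apart mainly by synonymous and untranslated bases. The first 30 coding bases of both are shown because the Actg1 and Actb counts are set against each other below. Capitals mark the 8 positions at which they differ. Several of the 8 lie in codons whose residue differs, so this stretch is not typical of the whole coding sequence. They were read from GENCODE transcripts on GRCm38, chr5:142905657-142905686 (minus strand) for Actb and chr11:120348062-120348091 (minus strand) for Actg1.
Actb: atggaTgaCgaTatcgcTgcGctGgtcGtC
Actg1: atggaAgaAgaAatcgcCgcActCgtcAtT
Over the 1125 coding bases, 128 differed (88.6% identical), and the longest identical run was 62 bases. Of the 100-base stretches of the Actg1 transcript, 51.1% also occurred in other annotated transcripts, those of 6 processed pseudogenes, whose counts together came to 1.75% to 16.3% of the Actg1 count in the 12 libraries. The same share was 22.4% for Actr3 (2 pseudogenes), 12.4% for Cfl1 (a pseudogene and the neighbouring gene Snx32), 1.10% for Actb and 0 for the other members. The Actg1, Actr3 and Cfl1 counts are thus uncertain to the extent that reads could be lost to, or come from, these copies.

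Stored maternal messages often carry the cytoplasmic polyadenylation element, searched here as TTTTAT or TTTTAAT on the transcript's own strand of the 3' UTR, the other strand not being searched. It was found in 6 members: Actr2 8 times, Spire1 4 times, Actr3 3 times, and Fmn2, Actb and Myo5b 2 times each. Spire2, Actg1, Cfl1 and Pfn1 held none, and Spire2 and Pfn1 have the shortest 3' UTRs of the 10 (124 and 277 bases). Of the 10753 genes averaging 50 or more counts, 60.0% held at least 1, and their median 3' UTR length was 955 bases. Within the last 100 bases only Spire1 and Actr2 of the members held the element, beside 19.3% of these genes. A 30-base window around 1 element is shown for 4 members, to show the element in its setting; capitals mark the element (GRCm38, GENCODE). The windows lie at chr1:174822531-174822560 (plus strand), chr11:20062323-20062352, chr1:125393083-125393112 and chr5:142903268-142903297 (minus strand), and the element starts 187, 37, 195 and 171 bases before the transcript's end.
Fmn2: gaaacagtagtgTTTTATtttcttctgctg
Actr2: aaatatacttctTTTTAATtaagaaaataa
Actr3: ataattgtgaacTTTTAATatgttgagtgc
Actb: cttcatttttgtTTTTAATttctgaatggc
These matches describe the letters of the transcripts, and no binding was measured.

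The libraries held 28557742 to 40247810 counts. The ERCC spike-in RNAs, synthetic RNAs added in equal amount to each tube, took 221927 to 838409 counts, and endogenous counts per spike-in count were lower at MII (47.0 to 87.9) than at GV (98.9 to 127.7). Values below are spike-in scaled counts, that is, counts divided by each library's relative spike-in total. A lower value thus means fewer counts per pool and not a smaller share of the message. The targeted gene fitted the labels, with Alkbh5 at 5355 to 10181 counts in WT and 54 to 143 in KO libraries. All 12 oocyte markers were detected in every library, while the granulosa markers Amhr2 (0 in every library), Amh, Foxl2 and Nr5a1 were at or near 0. Of 14 granulosa markers, 7 to 12 were detected, with 1000 to 2372 counts in all. RNA of other tissues was uneven: haemoglobin genes had 31844 to 182754 counts in 6 libraries and 33 to 1395 in the other 6, and the heart myosin gene Myh6 had 895 to 2785 counts in 8 libraries and 1 to 13 in the other 4. Myh7, Tnnt2, Myl2, Myl3, Pln and Actc1 were lowest in the same 4 libraries. The sum of all 10 heart markers, 3338 to 35366 counts, did not follow this split, since Tnni3 took 2036 to 34485 of it.

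All 10 messages were detected in GV oocytes. On GRCm38 the genes on which the results turn lie at chr11:120345690-120348542 (Actg1), chr5:142903115-142906754 (Actb), chr11:70651850-70654644 (Pfn1), chr8:123332713-123369515 (Spire2) and chr1:174501825-174822729 (Fmn2). Per kilobase of exon, the WT GV level was 3319 ± 419 for Cfl1, 1339 ± 124 for Actr2, 1183 ± 169 for Pfn1, 985 ± 141 for Actb, 814 ± 403 for Actg1, 740 ± 34.9 for Myo5b, 616 ± 43.7 for Fmn2, 586 ± 81.1 for Spire1, 265 ± 17.0 for Actr3 and 36.7 ± 3.7 for Spire2 (spike-in scaled counts per kilobase, mean ± SD, n = 2). Cfl1, encoding cofilin, which severs old filaments, stood apart from the next gene, and so did Spire2 and Actr3 at the low end. The neighbours from Actr2 down to Myo5b overlapped between libraries, as did Fmn2 and Spire1. At MII in WT the order had changed: Actg1 was the ninth at 105.7 and Pfn1 the seventh at 332, each apart from its neighbours, while Myo5b (728), Fmn2 (689), Spire1 (633) and Actb (570) overlapped along the order. In KO MII libraries Actg1 ranked the fifth at 464 and overlapped both of its neighbours, Fmn2 and Myo5b.

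**Figure D1:**
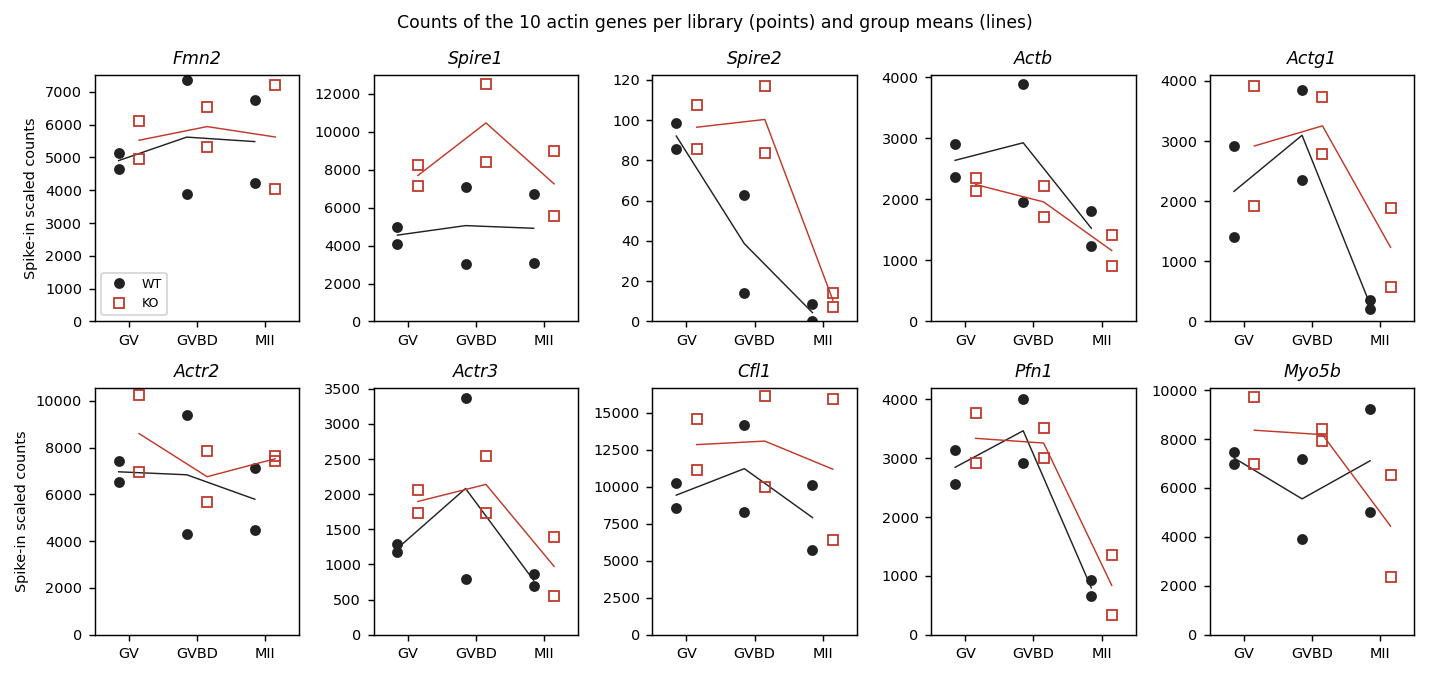
Spike-in scaled counts (vertical axes, linear and starting at 0) of the 10 genes by stage; filled circles are WT libraries, open squares KO libraries, and lines join the means of 2 libraries. The means of Actg1, Pfn1, Spire2, Actb, Actr3 and Cfl1 are lowest at MII in both genotypes. The 4 Spire1 squares at GV and GVBD lie above the WT circles of the same stage.

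The comparison of MII with GV asks which messages had lower counts as the oocyte matured. The study's methods describe reverse transcription of polyadenylated messages. It reports that the poly(A) tails of tested messages shortened during maturation in WT and less so in KO. That assay was not repeated, for lack of KO MII samples. Loss of a message and a shorter tail cannot be told apart by these counts. In WT, 3 of the 10 genes were lower at MII, by the call rule of an adjusted p under 0.05 and at least a 2-fold change: Actg1, Spire2 and Pfn1. That share, 30.0%, lies beside 30.9% of all 18816 genes tested (30.5% lower), so the number of calls does not set the group apart. Spike-in scaled counts of 5 members lay below those of GV without overlap (Spire2, Actb, Actg1, Actr3 and Pfn1), beside 58.0% of genes. The median gene fell by 1.06 on the log2 scale, and 7 of the 10 members lay above that median.

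The nucleators parted from each other. Fmn2 had 5149 and 4658 spike-in scaled counts at GV and 6749 and 4216 at MII in WT, so the groups overlapped, and its log2 fold change was 0.16 ± 0.47 (SE, n = 2 per group, adjusted p = 0.856, edgeR's quasi-likelihood test with Benjamini-Hochberg adjustment, as for all adjusted p below). Spire1 had 5000 and 4109 at GV and 6744 and 3085 at MII, again overlapping, with a log2 fold change of 0.11 ± 0.47 (adjusted p = 0.906). These 2 values were higher than those of 87.2% and 85.7% of the genes tested.

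Spire2, the second Spire gene, was scarce throughout. In WT it had 72 and 70 raw counts in GV, 47 and 16 in GVBD and 11 and 0 in MII libraries, and in KO 59 and 67, 51 and 106, and 14 and 10. A count of 0 allows up to 3 counts. The MII libraries of both genotypes lay below every GV library. In WT the log2 fold change was -4.45 ± 1.05 (adjusted p = 1.82e-04). The call rested on the library with 0 counts: without WT MII replicate 2 the log2 fold change was -3.37 (adjusted p = 0.0693).

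Of the cytoplasmic actins, Actg1 fell and Actb did not pass. The WT libraries of GV oocytes held 1407 and 2921 scaled counts, those of GVBD oocytes 3847 and 2347, and those of MII oocytes 357 and 204, so that both MII libraries lay far below the other 4. The MII against GV log2 fold change was -2.95 ± 0.53 (adjusted p = 5.21e-07), lower than for all but 15.4% of genes. The call was lost without WT MII replicate 2 (-2.60, adjusted p = 0.0554), and without WT GV replicate 2, the library of the pair with much haemoglobin (-2.33, adjusted p = 0.0909). The value of -2.33 sets the GV library with 438 haemoglobin counts against the MII libraries with 254 and 1395; the part of blood RNA in the size of the change was not tested. Actb had 2907 and 2373 at GV and 1817 and 1240 at MII, not overlapping, but its log2 fold change of -0.79 ± 0.49 did not pass (adjusted p = 0.230). It passed once WT MII replicate 1 was left out (-1.09, adjusted p = 0.0403).

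Among the partners of filament turnover, Pfn1, profilin, which feeds actin monomers to formins, held 2558 and 3132 scaled counts in WT GV oocytes, 4011 and 2920 in GVBD and 932 and 665 in MII oocytes. Both MII libraries lay below both GV libraries, and the log2 fold change was -1.83 ± 0.50 (adjusted p = 0.00156). The call was lost with either GV library left out (-1.97, adjusted p = 0.186, without WT GV replicate 1, and -1.68, adjusted p = 0.308, without WT GV replicate 2). Cfl1 had a log2 fold change of -0.25 ± 0.46 (adjusted p = 0.754), with 10282 and 8597 at GV against 10133 and 5716 at MII. Actr2 (-0.27 ± 0.47, adjusted p = 0.742), Actr3 (-0.67 ± 0.50, adjusted p = 0.349) and Myo5b (-0.02 ± 0.47, adjusted p = 0.981) did not pass either. Actr2 and Actr3 encode the actin-related proteins from which an Arp2/3 branch grows.

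Because the average message fell, the sign of a member depends on what it is set against. On the spike-in scale 8 of 10 members were negative in WT, whereas scaling to the bulk of the messages (TMM, under which the median gene moved by -0.14) left 3 negative, Spire2 (-3.75, adjusted p = 0.0900), Actg1 (-2.02, adjusted p = 0.0095) and Pfn1 (-0.89, adjusted p = 0.0193), and turned Actb, Actr2, Actr3, Cfl1 and Myo5b positive (0.13 to 0.86). Under TMM Fmn2 was called higher at MII (1.07, adjusted p = 0.0122).

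**Figure D2:**
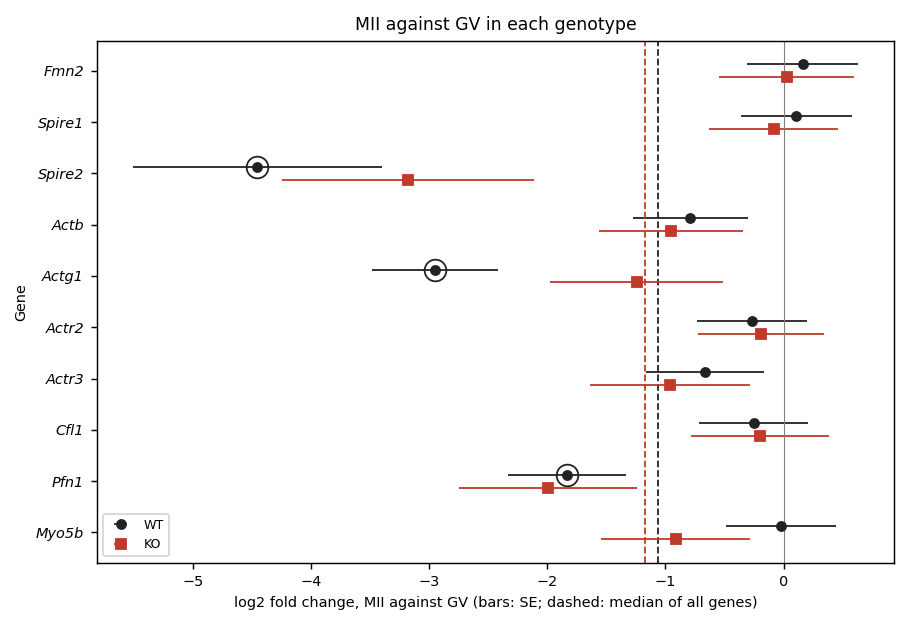
Log2 fold change of MII against GV (horizontal axis, spike-in scaled) for each gene in WT (circles) and KO (squares); bars are SE, dashed lines the median of all genes in each genotype, and rings mark called genes. Only the WT values of Spire2, Actg1 and Pfn1 are ringed, and most other members lie to the right of the dashed lines.

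In KO no member was called between GV and MII, where 3.28% of 18777 genes were, although 6 members lay lower at MII without overlap (the same 5 as in WT and Myo5b), beside 61.4% of genes. Pfn1 had 3763 and 2911 scaled counts at GV and 1349 and 329 at MII (log2 fold change -1.99 ± 0.75, adjusted p = 0.141), and Spire2 changed by -3.18 ± 1.06 (adjusted p = 0.107). Actg1 held 3922 and 1916 in GV, 3726 and 2783 in GVBD and 1889 and 576 in MII libraries, with a log2 fold change of -1.24 ± 0.73 (adjusted p = 0.317). For Pfn1 and Actg1 the KO MII libraries lay further apart than the WT ones, and leaving out KO MII replicate 1 raised the members called from 0 to 7 (Actg1 -2.34, Spire2 -3.72, Pfn1 -3.34, Actr3 -1.79, Cfl1 -1.0, Myo5b -1.83 and Actb -1.29), while the share of all genes called rose to 54.2%. Leaving out KO MII replicate 2 gave 2, Spire2 (-2.77) and Pfn1 (-1.31), beside 16.9% of all genes. KO MII replicate 1 was also the only MII library rich in haemoglobin (31844 counts); the part of this in the difference was not tested. Fmn2 had a log2 fold change of 0.03 ± 0.57 and Spire1 of -0.08 ± 0.55, against a median gene that fell by 1.17. Under TMM scaling Spire1, Actb, Actr2, Actr3, Cfl1 and Myo5b turned positive in KO (0.0085 to 1.07).

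No member was called between GV and GVBD in WT, where 0.0511% of 19566 genes were, or in KO, where 0.220% of 19064 were. The log2 fold changes ran from -1.26 (Spire2) to 0.76 (Actr3) in WT and from -0.35 (Actr2) to 0.44 (Spire1) in KO. The GVBD libraries of WT differed widely, with Actr3 at 3371 and 790 scaled counts. Without overlap, Spire2 lay lower at GVBD in WT, beside 19.3% of genes, and Spire1 higher in KO, beside 12.5%.

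The comparison of KO with WT at each stage asks what loss of the demethylase did to these messages. No member passed at GV (0.0977% of 19452 genes did), at GVBD (2.54% of 19462) or at MII (0.803% of 17566). The median gene stood 0.36, 0.23 and 0.30 higher in KO on the log2 scale at the 3 stages, a shift that TMM scaling takes away, and members are read against it.

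Of the 10 members, Spire1 had the highest KO against WT log2 fold change at GV. KO libraries held 8266 and 7129 scaled counts against 5000 and 4109 in WT at GV, and 12550 and 8396 against 7083 and 3029 at GVBD, with no overlap at either stage. At MII 8977 and 5540 overlapped 6744 and 3085. Its log2 fold change in GV oocytes was 0.76 ± 0.19 with an adjusted p of 0.166. It was 1.05 ± 0.54 in GVBD oocytes (adjusted p = 0.375), and 0.56 ± 0.74 with an adjusted p of 1.0 in MII oocytes. Under TMM scaling these values were 0.40, 0.84 and 0.37. Over all stages, where 1.26% of 22004 genes were called, it was 0.79 ± 0.28 (adjusted p = 0.153). At GV the adjusted p was 0.0031 with DESeq2 and 0.04999 with no filter, both short of the fold needed for a call. It was 0.387 under TMM scaling and 0.243 with the replicate block, and did not pass with all 12 libraries in 1 model. For all stages together the block gave 0.0318, also short of the fold, and DESeq2, TMM scaling and no filter gave 0.0539 to 0.104. Fmn2 differed by 0.17, 0.08 and 0.04 at GV, GVBD and MII, so the ratio of Spire1 to Fmn2 raw counts, which no scaling touches, moved. It was 0.97 and 0.88 in WT and 1.35 and 1.44 in KO at GV, 0.96 and 0.78 against 2.35 and 1.28 at GVBD, and 0.999 and 0.73 against 1.24 and 1.37 at MII. Every KO library lay above every WT library, the 1 pair of 45 pairs of members for which this was so. The pair was picked after its values were seen, and no test was made of it. The share of all gene pairs that part in this way was not counted.

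At GV, 3 members were higher in KO without overlap (Spire1, Actr3 and Cfl1), beside 42.2% of genes, and Actb was lower, beside 9.69%. At GVBD 3 were higher (Spire1, Spire2 and Myo5b), beside 30.3%. At MII 2 were higher (Actg1 and Actr2), beside 22.1%. Actb was the member with a negative value at every stage (-0.23, -0.58 and -0.39), and over all stages its log2 fold change was -0.40 ± 0.24 (adjusted p = 0.377). Under TMM scaling this was -0.64 with an adjusted p of 0.0241, short of the fold needed for a call.

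**Figure D3:**
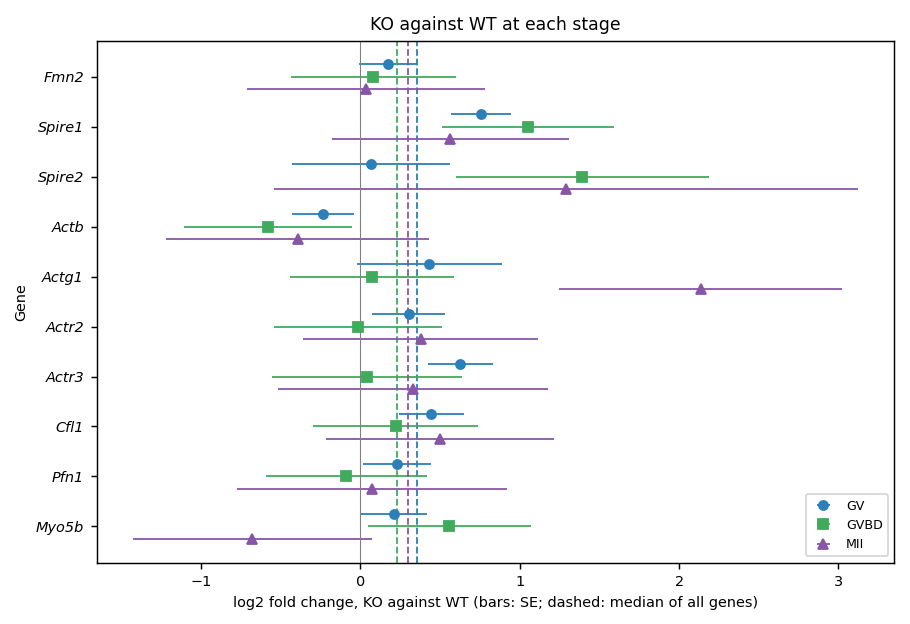
Log2 fold change of KO against WT (horizontal axis, spike-in scaled) for each gene at GV (circles), GVBD (squares) and MII (triangles); bars are SE and dashed lines the median of all genes at each stage. Spire1 lies to the right of the dashed line at every stage, Actb lies left of 0 at every stage, and Actg1 stands out at MII with a wide bar.

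Actg1 at MII had the largest genotype difference of the 10. KO libraries held 1889 and 576 scaled counts and WT libraries 357 and 204, without overlap, and the log2 fold change was 2.13 ± 0.89 (unadjusted p = 0.0162, adjusted p = 0.382). Left-out libraries moved it between 1.04 and 2.75. Tested directly, the GV to MII change of Actg1 differed between genotypes by 1.70 ± 0.92 (adjusted p = 0.985). In that test edgeR called 0 of 20807 genes (0% of them), with 1197 at an unadjusted p under 0.05, while DESeq2 called 154 and TMM scaling 71, with 0 members called under any alternative.

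Within a library, the 2 cytoplasmic actins can be set against each other without any scaling. Actg1 made up 32.6% and 55.2% of the Actb plus Actg1 counts in WT and 62.5% and 47.3% in KO at GV. At GVBD the shares were 49.7% and 54.5% in WT and 62.7% and 62.0% in KO, and at MII 16.4% and 14.2% in WT and 57.3% and 38.6% in KO. The KO share was above the WT share without overlap at GVBD and MII and overlapped it at GV. Averaged over stages it was 18.0 percentage points higher in KO (exact two-sided permutation test of genotype within stage, unadjusted p = 0.0278 over 216 arrangements, the smallest p being 0.00926). The group means lay furthest apart at MII, at 15.3% in WT and 47.9% in KO. It was the only ratio of members tested, and the members were chosen with earlier results of these data known. The p was 0.0741 without WT GV replicate 1 and 0.0833 without KO GV replicate 1. The difference of 18.0 points rests on both messages. For Actg1 the KO against WT log2 fold changes were 0.43, 0.07 and 2.13 at GV, GVBD and MII. Its scaled counts overlapped between genotypes at GV and GVBD, and under TMM scaling the GVBD value was -0.19. For Actb the log2 fold changes were -0.23, -0.58 and -0.39. With sign flips within same-numbered pairs of libraries the exact p was 0.0938. Blood RNA was uneven here. WT GV replicate 1, with 438 haemoglobin counts, had the lowest GV share. KO MII replicate 1, with 31844, had a higher share than KO MII replicate 2, with 33. At GVBD the higher KO shares came with 124 and 265 haemoglobin counts, against 106038 and 97812 in WT. The part of blood RNA in the share was not tested.

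**Figure D4:**
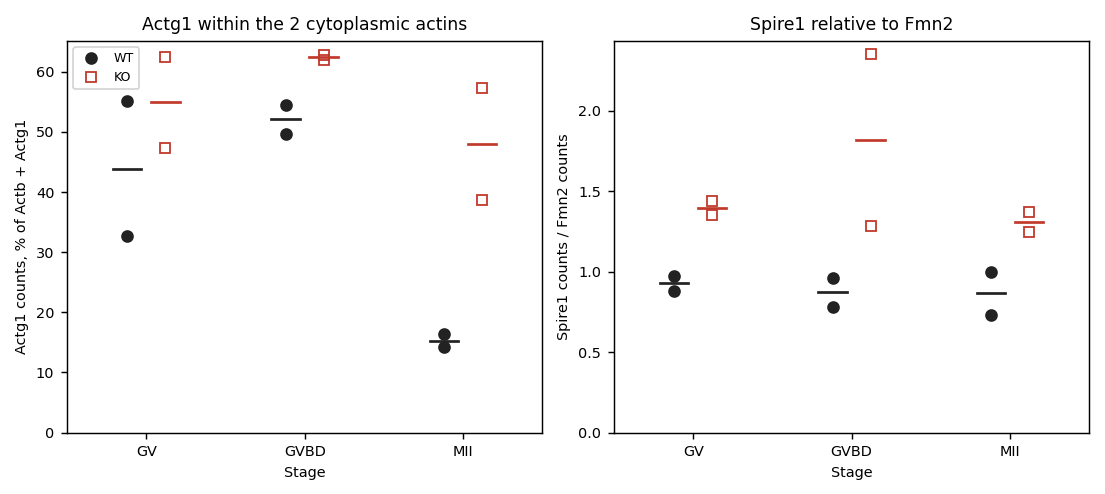
Left, Actg1 counts as a percentage of Actb plus Actg1 counts per library; right, Spire1 counts divided by Fmn2 counts; filled circles are WT, open squares KO, and short lines the mean of 2 libraries. At MII the WT actin shares (16.4% and 14.2%) lie below both KO shares, and every KO ratio of Spire1 to Fmn2 (1.24 to 2.35) lies above every WT ratio (0.73 to 0.999).

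A wider list of 123 actin genes in 9 role groups, the members included, was read in the same fits. In WT 37 of 118 tested genes were lower at MII than at GV and none was higher, 31.4% beside 30.9% of all genes, with a median log2 fold change of -0.68. Genes of monomer binding and filament turnover had 11 of 18 lower (median -1.63), while none of 10 genes of myosin V and RAB11 vesicles was called (median -0.91), Myo5b among them. The Arp2/3 complex had 4 of 10 lower and its activators and inhibitors 6 of 25, the formins 3 of 12, the WH2 nucleators 2 of 6, the actin isoforms 2 of 6, capping proteins and tropomyosins 4 of 11, and cortical myosins and linkers 5 of 20. The 4 lowest were Myl9 (-5.23), the formin Inf2 (-4.89), Tpm2 (-4.83) and Spire2 (-4.45). The Myl9 change turned to 0.25 without WT GV replicate 2, the library with 153309 haemoglobin counts, in which Myl9 had 294 counts against 4 in the other GV library; the part of blood or vessel RNA in it was not tested. The Myl9 call was also lost with either MII library left out (adjusted p = 0.186 and 0.349), and the Inf2 call without any of the same 3 libraries (adjusted p = 0.0577 to 0.548). Neither passed under TMM scaling (adjusted p = 0.123 and 0.109). In KO 4 of 114 were lower at MII, 3.51% beside 3.28%: Actc1, Tmod1 and Acta2, all at 0 counts in both KO MII libraries, and Twf2, twinfilin, which binds actin monomers (-3.31 ± 0.78, adjusted p = 0.0494). The Acta2 and Twf2 calls were lost with either KO GV library left out (adjusted p = 0.135 to 0.728). Set against a floor of 3 counts per library, Actc1 was at least 199-fold lower, Tmod1 at least 93.6-fold and Acta2 at least 28.9-fold. Of the 9 heart markers other than Actc1, 7 also had fewer counts in both KO MII libraries than in either KO GV one (Myh6 13 and 2 against 985 and 895); the part of heart RNA in these changes was not tested.

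**Figure D5:**
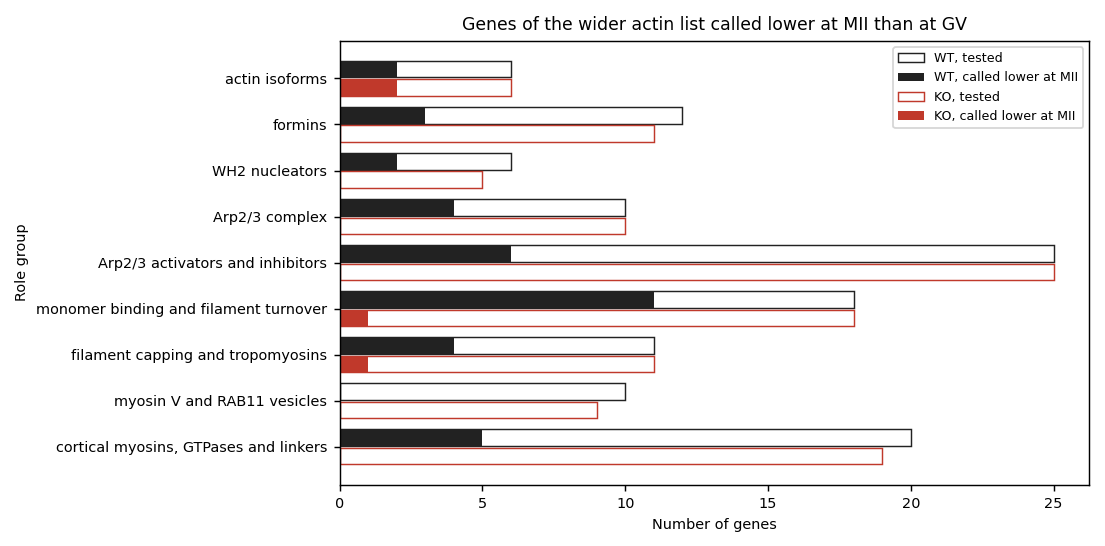
Number of genes (horizontal axis) tested (outlined bars) and called lower at MII than at GV (filled bars) in 9 role groups of the wider actin list, WT in black and KO in red. Filled WT bars are longest in monomer binding and filament turnover (11 of 18), and the vesicle group has none in either genotype.

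Between genotypes, 0 of 117 genes of the list were called at GV, beside 0.0977% of all genes. At GVBD 8 of 119 were called, 1 higher and 7 lower in KO (6.72% beside 2.54%), and at MII 3 of 113, all lower (2.65% beside 0.803%). At GVBD Myo10, an unconventional myosin of filopodia, was higher in KO, with 3965 and 4104 scaled counts against 823 and 468 (2.64 ± 0.55, adjusted p = 0.0106). It had also risen from GV in KO (2.00 ± 0.27, adjusted p = 0.0417), where Tmsb4x, which sequesters actin monomers, fell (-2.39 ± 0.28, adjusted p = 0.0178); both calls were lost with either KO GV library left out (adjusted p = 0.241 to 0.553). Haemoglobin genes moved with this step, from 84533 and 182754 counts in KO GV to 124 and 265 in KO GVBD libraries, and the part of blood RNA in the Tmsb4x change was not tested. Was, at 0 counts in both KO GVBD libraries, was at least 10.8-fold lower, and Myl9 (-7.56), Acta1 (-5.00) and Tpm4 (-3.58) were lower too. The 5 GVBD calls named here were lost with either WT GVBD library left out (Myo10 adjusted p = 0.166 and 0.215), Tpm4 also without KO GVBD replicate 1 (0.0624), and all 5 under TMM scaling (adjusted p = 0.0584 to 0.164). The WT GVBD libraries had 106038 and 97812 haemoglobin counts and the KO ones 124 and 265, so at this stage genotype and blood RNA cannot be told apart. At MII Actc1, Tmod1 and Lmod2, genes of muscle filaments, were at 0 in both KO libraries. Against the same floor Actc1 was at least 128-fold lower, Tmod1 at least 23.2-fold and Lmod2 at least 19.4-fold. All 3 calls were lost with the replicate block (adjusted p = 0.0607 to 0.140) and with all 12 libraries in 1 model (adjusted p = 0.0982 to 0.171). The Tmod1 and Lmod2 calls were lost with either WT MII library left out (adjusted p = 0.273 to 1.0) and under TMM scaling (adjusted p = 0.0672 and 0.0875). Of the 9 other heart markers, 6 had fewer counts in both KO MII libraries than in either WT one (Myh6 13 and 2 against 2785 and 1378), Tnni3 had more (9619 and 2424 against 2056 and 2036), and Myl7 and Ttn overlapped; the whole list summed to 10013 and 6864 counts in WT and 12453 and 3338 in KO. The part of heart RNA in these differences was not tested. Over all stages Washc3, a subunit of an Arp2/3 activator on endosomes, had a higher level in KO by 1.24 ± 0.26 (adjusted p = 0.0382), its GV libraries holding 1343 or more scaled counts against 806 and 659 in WT; the call held without KO MII replicate 2 (adjusted p = 0.0155) and was lost without any other single library (adjusted p = 0.0537 to 0.130) and under TMM scaling, where the log2 fold change was 0.95.

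The genes whose relative level tracked Fmn2 most closely over the 12 libraries were Bmpr2, Rbm26, Copb1, Fndc3b and Cobll1, with a root mean square difference of 0.10 to 0.13 between centred log2 TMM profiles, beside a median of 0.73 over 13272 genes. Cobll1 is itself in the WH2 group of the wider list.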

How the data were processed

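The deposited values are unnormalized read counts of each gene in each library, which the authors made from trimmed reads aligned to the mouse genome mm10 joined to the ERCC sequences. The submitters' processing notes name cutadapt 1.9, HISAT2 2.0.4 and StringTie 1.3.4d. The study's methods describe full-length cDNA of pooled oocytes, whereas the sample labels describe bulk RNA extraction, and which was used is not settled. PCR copies carry no molecular identifiers, and the use of strand is not given in the sources used here.

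Columns matched 12 samples by title, 0 columns belonging to none. Genes were filtered by edgeR's filterByExpr, and tested with edgeR 4.0.16 (R 4.3.3, quasi-likelihood, library sizes proportional to ERCC counts), with 2 groups per fit, 4 groups for the genotype difference in the change from GV to MII, and all 12 libraries for the genotype effect over all stages. A gene was called at a Benjamini-Hochberg adjusted p under 0.05 and an absolute log2 fold change of at least 1; SE is the fold change over the root of F. Alternatives were TMM scaling, DESeq2 1.42.0, no filter, a replicate block, all 12 libraries in 1 model, no fold minimum and each library left out. The fits of KO against WT at MII and of MII against GV in WT were tested on simulated data. The simulation changed only genes with many counts and gave every gene the same dispersion. It thus does not cover scarce messages such as Spire2 or uneven replicates. The Actg1 share was tested by exact permutation of genotype within stage.

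The 2 libraries of a group are described as independent samples. The members and lists were chosen with earlier results of these data known. Named besides the members were Alkbh5, up to 4 highest and 4 lowest called genes of the wider list per comparison, and the 5 genes nearest to Fmn2.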

Additional observations from a re-analysis of the deposited data

How the results depend on the processing

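For members, 0 were called in any comparison other than MII against GV under every alternative run, and the number called in WT was 1 to 4 with single libraries left out, beside 14.3% to 26.1% of all genes. In KO it was 0, but 2 with DESeq2, 1 with all 12 libraries in one model and 0 to 7 with single libraries left out. The same-numbered libraries deviated together with correlations of -0.22 to 0.14, so the numbers were not taken to pair them. With the replicate block the KO count was 1 (Pfn1), beside 13.1% of all genes. The Actg1 share kept its difference of 18.0 percentage points, with an exact p of 0.0938 over sign flips in 64 arrangements. That difference ran from 14.2 to 21.7 with single libraries left out. With the numbers crossed between genotypes, an alternative chosen after seeing the data, 218 genes were called at GV and 0 at MII, none a member.

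Under TMM scaling the MII against GV sign turned for Actb (0.13), Actr2 (0.65), Actr3 (0.30), Cfl1 (0.64) and Myo5b (0.86) in WT, and for Spire1 (1.03), Actb (0.18), Actr2 (1.07), Actr3 (0.0085), Cfl1 (0.81) and Myo5b (0.080) in KO, TMM setting the bulk of messages to no change. Fmn2 in KO turned to -0.026 with the block. With single libraries left out, WT values ran from -0.22 to 0.46 for Fmn2, -0.56 to 0.57 for Spire1, -0.64 to 0.030 for Actr2, -0.72 to 0.10 for Cfl1, -0.53 to 0.35 for Myo5b and -6.69 to 0.25 for Myl9. KO values ran from -0.45 to 0.38 for Fmn2, -0.47 to 0.22 for Spire1, -0.45 to 0.12 for Actr2 and -1.0 to 0.31 for Cfl1. Over all genes, the counts called moved more. At GV they were 19 between genotypes, 666 with DESeq2 or no filter and 0 with the block or the joint model. At GVBD they were 494, and 12 to 953 over these alternatives, and at MII 141, and 4 to 346. From GV to MII they were 5821 in WT, and 3839 to 5520, and 616 in KO, and 951 to 3068. From GV to GVBD they were 10 in WT, and 1 to 528, and 42 in KO, and 0 to 516; over all stages 278, and 600 to 1356; and for the genotype difference 0, and 0 to 346. The cause was not tested.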
